A study of Mus musculus with 8 samples.

Results

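The genes described here encode proteoglycans, elastic fibre proteins and adhesive glycoproteins of the extracellular matrix: *Dcn*, *Bgn*, *Lum*, *Vcan*, *Eln*, *Fbn1*, *Fbln5*, *Efemp1*, *Fn1* and *Tgfbi*. They were chosen by gene symbol, and all 10 were found among the 24940 genes of the count table. Liver RNA was sequenced from 4 FXRKO and 4 BCL6LKOFXRKO male mice of the C57BL/6 strain, and no age is given in the sources used here. Both genotypes were homozygous for the *Fxr* (*Nr1h4*) knockout in the whole body and carried *Bcl6* fl/fl alleles, and BCL6LKOFXRKO mice additionally carried Alb-Cre. The comparison asks what the loss of hepatocyte *Bcl6* adds in livers that already lack FXR, the nuclear receptor for bile acids. Alb-Cre is driven by the albumin promoter and acts in hepatocytes, so *Bcl6* of stellate cells and portal fibroblasts was not targeted. Livers with intact *Fxr* were not analysed here. The livers are numbered 1 to 4 within a genotype in the order of their records, and equal numbers do not mark pairs. No pairing was fitted, and p-values measure the spread between these 8 libraries.

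Proteoglycans are core proteins that carry glycosaminoglycan chains. The small leucine-rich members bind collagen fibrils, while versican forms large aggregates with hyaluronan. Elastic fibres consist of an elastin core on a scaffold of fibrillin microfibrils, and fibulins help elastin to assemble on that scaffold. In liver, most of these proteins are made by stellate cells and portal fibroblasts, whereas plasma fibronectin is a secreted product of hepatocytes.

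Total counts on genes ranged from 7586241 to 11839503 per liver, and a floor of 3 counts lay between 0.272 and 0.375 CPM (counts scaled to the TMM-adjusted library size), which covers counting error only. *Bcl6* was at 21.2 to 65.2 CPM in FXRKO and 4.61 to 11.9 CPM in BCL6LKOFXRKO livers, a log2 fold change of -2.72 (SE 0.40, adjusted p = 0.00123, edgeR), so the labels and the deleted gene went the same way. Counts of *Nr1h4* remained, at 56.7 to 62.6 CPM in FXRKO livers and 39.4 to 48.1 CPM in BCL6LKOFXRKO livers. All 8 hepatocyte markers passed the count filter, and albumin (*Alb*) alone took 4.04% to 5.16% of the counts in FXRKO livers and 11.9% to 13.2% in BCL6LKOFXRKO livers. Scaling by total counts without TMM moved the median log2 fold change of all genes by -0.16, and under that scaling the calls of the 9 tested matrix genes were as with TMM.

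Most of the matrix genes were more abundant when hepatocyte *Bcl6* was lost in addition to *Fxr*, while fibronectin moved in the opposite direction. Of the 10 genes, 9 passed the filter on low counts and *Vcan* did not. *Dcn*, *Bgn*, *Lum*, *Fbn1*, *Fbln5* and *Tgfbi* were called higher in BCL6LKOFXRKO livers, *Fn1* was called lower, and *Eln* and *Efemp1* were not called. A call needed an adjusted p under 0.05 in edgeR's quasi-likelihood test, adjusted over 12340 genes, together with a log2 fold change beyond 0.5 in either direction. Thus 7 of the 9 were called, against 23.9% of all tested genes, of which 14.1% were called higher and 9.84% lower. Over all genes these shares depend on the scaling, with 1739 higher and 1214 lower genes by TMM and 1267 higher and 2128 lower genes by total counts alone. In the 6 genes called higher all 4 BCL6LKOFXRKO livers lay above all 4 FXRKO livers, a separation that 16.1% of all tested genes showed. In *Fn1* the 4 BCL6LKOFXRKO livers lay below, as in 15.2% of tested genes. The median log2 fold change of the 9 tested genes was 0.97, against 0.01 over all tested genes. When the fold threshold was raised to a log2 fold change above 1, the calls of *Bgn*, *Fbln5* and *Fn1* were lost, and 4 genes were called higher and 0 lower.

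**Figure D1:**
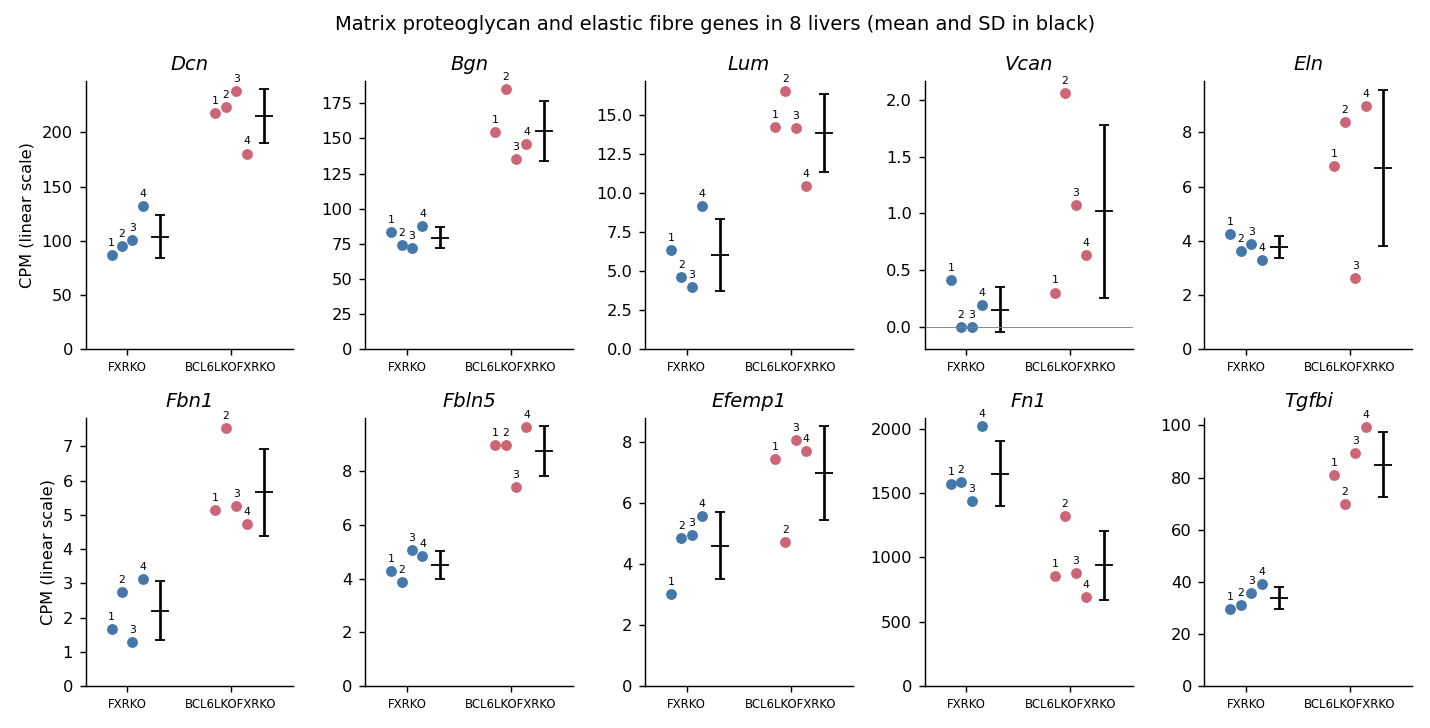
CPM (linear scale) of each gene in FXRKO (blue) and BCL6LKOFXRKO (red) livers, 1 point per liver with the liver's number, and the mean and SD (n = 4) in black. The groups do not overlap for *Dcn*, *Bgn*, *Lum*, *Fbn1*, *Fbln5*, *Fn1* and *Tgfbi*, whereas 1 BCL6LKOFXRKO liver falls among or below the FXRKO livers for *Eln*, *Efemp1* and *Vcan*.

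Decorin (*Dcn*, NM_001190451, mm10 chromosome 10 from 97479500 to 97518163, plus strand) binds collagen fibrils and regulates their spacing. It was at 87.1, 95.7, 101 and 132 CPM in FXRKO livers 1 to 4 and at 218, 224, 238 and 181 CPM in BCL6LKOFXRKO livers 1 to 4. Its lowest BCL6LKOFXRKO liver was above its highest FXRKO liver. *Dcn* rose by a log2 fold change of 1.05 (SE 0.14, 95% interval 0.74 to 1.36, adjusted p = 0.000145, edgeR). In whole tissue, more cells of a type and more RNA per cell cannot be told apart, which holds for every gene below.

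Biglycan (*Bgn*, NM_007542, chromosome X from 73483601 to 73495936, plus strand) is the closest relative of decorin and can carry a pair of glycosaminoglycan chains. Its CPM in FXRKO livers 1 to 4 were 83.3, 74.4, 72.0 and 87.7, and in BCL6LKOFXRKO livers 1 to 4 they were 155, 185, 135 and 146. These livers were tightly grouped within each genotype and did not overlap. The log2 fold change was 0.97 (SE 0.12, 95% interval 0.70 to 1.23, adjusted p = 8.21e-05, edgeR). Its promoter is shown as that of a gene that rose, at chrX:73483351-73483650 on the plus strand of RefSeq's GRCm38.p6 sequence, with GC boxes in capitals (GGGCGG, or CCGCCC on the other strand).
*Bgn* promoter: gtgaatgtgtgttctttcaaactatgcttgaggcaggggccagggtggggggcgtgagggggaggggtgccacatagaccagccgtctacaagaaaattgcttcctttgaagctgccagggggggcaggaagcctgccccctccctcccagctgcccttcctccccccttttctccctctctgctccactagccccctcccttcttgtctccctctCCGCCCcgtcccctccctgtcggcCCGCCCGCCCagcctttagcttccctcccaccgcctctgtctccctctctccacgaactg
Of the 10 genes, 6 had a promoter in that table (*Bgn*, *Vcan*, *Fbn1*, *Fbln5*, *Efemp1* and *Tgfbi*), each reaching from 250 bases before to 50 bases after a transcript start. The 7 promoters (a pair of them from *Fbln5*) were searched on both strands for the GC box, for the AP-1 letters TGANTCA, for TATAAA, the letters of the core promoter box of that name, and for TTCNNNGAA, the core shared by STAT and BCL6 sites. The GC box was in 6 of the 7 and in 35.7% of all 32851 promoters, and the AP-1 letters were in 1 of the 7 and in 7.81% of all. Neither TATAAA nor TTCNNNGAA was in these windows, while 13.6% and 8.30% of all promoters held them. The 6 promoters with a GC box consisted of 54.3% to 65.7% G and C, above the median of 52.7% over all promoters, and the shares were not adjusted for this. A match of letters is a description of the sequence only. In *Bgn* the 3 GC boxes began 34, 10 and 6 bases before the transcript start, and the last pair shared bases.

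Lumican (*Lum*, NM_008524, chromosome 10 from 97565501 to 97572703, plus strand) carries keratan sulfate in some tissues and binds collagen fibrils. Its gene begins 47337 bases after the end of *Dcn*, on the same strand. *Lum* was much lower than both relatives, at 6.35, 4.62, 3.98 and 9.18 CPM in FXRKO livers and 14.2, 16.5, 14.1 and 10.4 CPM in BCL6LKOFXRKO livers 1 to 4. The groups did not overlap, although FXRKO liver 4 (97 counts) came near BCL6LKOFXRKO liver 4 (115 counts). *Lum* rose by a log2 fold change of 1.18 (SE 0.24, 95% interval 0.66 to 1.70, adjusted p = 0.00281, edgeR). Per liver, the ratio of *Dcn* to *Lum* on the RPKM scale (CPM per kilobase of the table's transcript length) ran from 15.1 to 28.0 in FXRKO and from 14.9 to 19.1 in BCL6LKOFXRKO livers, and that of *Dcn* to *Bgn* from 1.35 to 1.94 and from 1.55 to 2.26. Both ratios overlapped between the genotypes.

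Versican (*Vcan*, NM_019389, chromosome 13 from 89655310 to 89742512, minus strand), the large hyaluronan-binding proteoglycan, was near the limit of detection. It had 4, 0, 0 and 2 counts in FXRKO livers 1 to 4 and 3, 17, 11 and 7 counts in BCL6LKOFXRKO livers 1 to 4. BCL6LKOFXRKO liver 1 lay within the FXRKO range and the other 3 livers above it. *Vcan* did not pass the filter and has no call. Without the filter it had an adjusted p of 0.0229 (edgeR), with a log2 fold change of 2.52 that depends on the prior count given to such a gene.

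**Figure D2:**
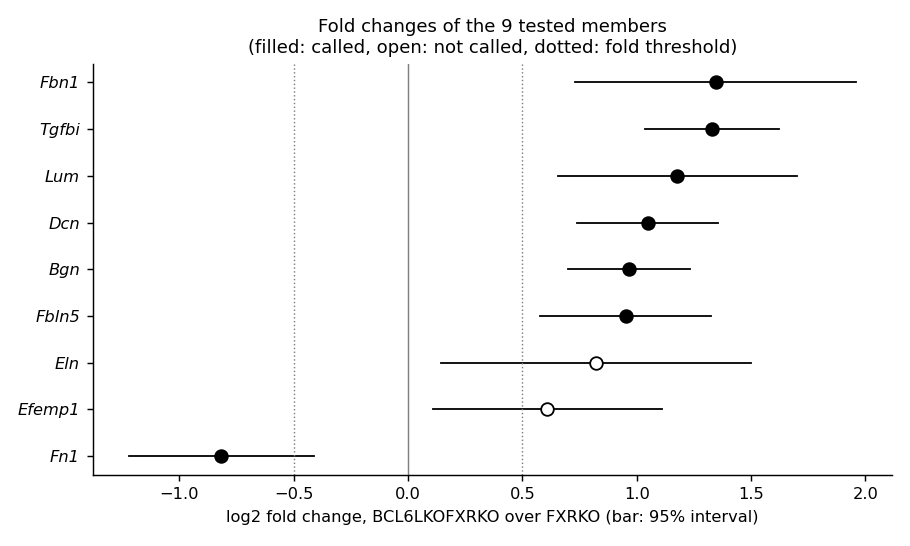
Log2 fold change of BCL6LKOFXRKO over FXRKO livers for the 9 tested genes (edgeR, n = 4 per genotype), with 95% intervals as bars, filled points for called genes and dotted lines at 0.5 and -0.5. *Fn1* lies below 0 at -0.82, and the other 8 lie between 0.61 and 1.34.

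Elastin (*Eln*, NM_007925, chromosome 5 from 134702595 to 134747323, minus strand), the stretchable core of elastic fibres, was at 4.27, 3.62, 3.87 and 3.31 CPM in FXRKO livers and 6.75, 8.37, 2.63 and 8.99 CPM in BCL6LKOFXRKO livers 1 to 4. In BCL6LKOFXRKO livers 1, 2 and 4 it was above every FXRKO liver, and in liver 3, with 27 counts, it was below all of them. The log2 fold change was 0.82 (SE 0.31, 95% interval 0.15 to 1.50), and the gene was not called (adjusted p = 0.0650, edgeR). Without BCL6LKOFXRKO liver 3 the log2 fold change was 1.09 (adjusted p = 0.00184, edgeR). The call also turned on the tool, since on all 8 livers DESeq2 gave a log2 fold change of 0.82 with an adjusted p of 0.0454, and limma voom 0.57 with an adjusted p of 0.212.

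Fibrillin-1 (*Fbn1*, NM_007993, chromosome 2 from 125300594 to 125506438, minus strand) forms the microfibril scaffold and binds latent TGF-beta complexes. It was at 1.67, 2.75, 1.29 and 3.12 CPM in FXRKO livers and 5.14, 7.52, 5.26 and 4.72 CPM in BCL6LKOFXRKO livers 1 to 4. All BCL6LKOFXRKO livers were higher, and counts were low, from 12 to 62 per liver. *Fbn1* rose by a log2 fold change of 1.34 (SE 0.28, 95% interval 0.73 to 1.96, adjusted p = 0.00343, edgeR), the largest point estimate of the 9 tested genes. In the GENCODE M21 annotation 2442 bases of its exons lie opposite exons of *Gm9913*, and 267 bases of *Eln* and 292 bases of *Fn1* lie opposite antisense genes. The stated counting options name no strand, so reads of these partners cannot be told apart. The *Fbn1* promoter, of a gene that rose, lies at chr2:125506389-125506688 on the minus strand (GC box in capitals).
*Fbn1* promoter: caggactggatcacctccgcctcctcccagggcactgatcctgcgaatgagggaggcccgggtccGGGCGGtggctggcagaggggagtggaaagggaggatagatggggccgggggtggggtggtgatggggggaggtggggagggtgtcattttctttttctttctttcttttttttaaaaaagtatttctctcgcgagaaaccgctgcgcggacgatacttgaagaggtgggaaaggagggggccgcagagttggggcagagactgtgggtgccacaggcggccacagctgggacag

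Fibulin-5 (*Fbln5*, NM_011812, chromosome 12 from 101746565 to 101819119, minus strand) tethers elastin to integrins and microfibrils. In FXRKO livers 1 to 4 it was at 4.27, 3.87, 5.05 and 4.83 CPM, and in BCL6LKOFXRKO livers at 8.96, 8.98, 7.40 and 9.62 CPM. The groups were well apart, and the spread within each was narrow for a gene of 31 to 106 counts. *Fbln5* rose by a log2 fold change of 0.95 (SE 0.17, 95% interval 0.58 to 1.32, adjusted p = 0.00120, edgeR). The promoter at the start of the counted transcript, chr12:101819070-101819369 on the minus strand, held GC boxes (capitals), and a second one, which starts 635 bases further into the gene, held none of the 4 motifs.
*Fbln5* promoter: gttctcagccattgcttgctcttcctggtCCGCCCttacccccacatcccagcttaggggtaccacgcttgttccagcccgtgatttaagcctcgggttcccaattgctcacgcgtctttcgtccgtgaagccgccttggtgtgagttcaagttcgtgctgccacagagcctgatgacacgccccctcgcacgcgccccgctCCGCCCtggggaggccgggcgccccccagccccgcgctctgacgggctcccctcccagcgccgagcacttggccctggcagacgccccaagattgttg

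Its relative fibulin-3 (*Efemp1*, NM_146015, chromosome 11 from 28853205 to 28926743, plus strand), a glycoprotein of basement membranes and elastic tissues, was at 3.02, 4.87, 4.94 and 5.58 CPM in FXRKO livers and 7.45, 4.73, 8.08 and 7.72 CPM in BCL6LKOFXRKO livers 1 to 4. BCL6LKOFXRKO liver 2 fell among the FXRKO livers and the other 3 were above them. The log2 fold change of 0.61 (SE 0.23, 95% interval 0.11 to 1.11) was not called (adjusted p = 0.0645, edgeR). Without BCL6LKOFXRKO liver 2 it was 0.74 (adjusted p = 0.0266, edgeR), which passed both thresholds. The livers that were low for *Eln* and for *Efemp1* were different ones. The *Efemp1* promoter, chr11:28852955-28853254 on the plus strand, is shown because it alone of the 7 held the AP-1 letters, 154 bases before the start, beside a GC box (both in capitals).
*Efemp1* promoter: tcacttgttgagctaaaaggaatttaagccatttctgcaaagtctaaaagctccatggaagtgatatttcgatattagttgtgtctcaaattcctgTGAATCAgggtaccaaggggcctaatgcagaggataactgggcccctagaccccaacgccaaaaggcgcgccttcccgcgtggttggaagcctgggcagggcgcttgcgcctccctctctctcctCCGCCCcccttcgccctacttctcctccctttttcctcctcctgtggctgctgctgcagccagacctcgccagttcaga

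Fibronectin (*Fn1*, NM_001276410, chromosome 1 from 71585473 to 71653234, minus strand), the adhesive glycoprotein of plasma and matrix, was the 1 gene of the set that fell. It was at 1570.2, 1581, 1435 and 2017 CPM in FXRKO livers and 856, 1321, 880.0 and 693 CPM in BCL6LKOFXRKO livers 1 to 4. Every BCL6LKOFXRKO liver was below every FXRKO liver, with liver 2 the nearest. The log2 fold change was -0.82 (SE 0.19, 95% interval -1.22 to -0.41, adjusted p = 0.00560, edgeR), or 0.568 times the FXRKO level. The table holds 1 count per gene, so plasma and cellular splice forms of fibronectin were not separated. Hepatocyte markers did not fall together: of 8 tested, *Alb* and *Apoc3* were called higher and *Ttr* lower. The median log2 fold change of the 8 markers was -0.10. Their summed level, which includes *Alb*, did not overlap, at 53866 to 66700 CPM in FXRKO and 146226 to 162405 CPM in BCL6LKOFXRKO livers. The part of hepatocytes in the level of *Fn1* was not tested.

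TGF-beta induced protein (*Tgfbi*, counted on transcript NR_155548, chromosome 13 from 56609586 to 56639359, plus strand) binds collagens and integrins. Its CPM were 29.5, 31.0, 35.6 and 39.0 in FXRKO livers and 80.9, 70.0, 89.2 and 99.4 in BCL6LKOFXRKO livers 1 to 4. The gap between the groups was wider than the range within either. *Tgfbi* rose by a log2 fold change of 1.33 (SE 0.14, 95% interval 1.04 to 1.62, adjusted p = 1.23e-05, edgeR). It had the smallest adjusted p of the 9 tested genes. Its promoter, chr13:56609336-56609635 on the plus strand, held a GC box before and another after the transcript start (capitals).
*Tgfbi* promoter: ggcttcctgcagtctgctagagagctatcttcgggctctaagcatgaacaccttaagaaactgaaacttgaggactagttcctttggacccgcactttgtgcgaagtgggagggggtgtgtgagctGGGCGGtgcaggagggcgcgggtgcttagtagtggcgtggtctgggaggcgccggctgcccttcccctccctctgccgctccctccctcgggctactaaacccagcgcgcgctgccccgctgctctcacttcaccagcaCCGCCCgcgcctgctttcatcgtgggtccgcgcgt

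The order of the genes by mean RPKM was the same in both genotypes: *Fn1*, *Dcn*, *Bgn*, *Tgfbi*, *Lum*, *Efemp1*, *Eln*, *Fbln5*, *Fbn1* and *Vcan*. In FXRKO livers *Fn1* was at 211 ± 32.3 RPKM, far above *Dcn* at 55.4 ± 10.5 RPKM (SD, n = 4), and only *Lum* and *Efemp1* had overlapping ranges as neighbours in the order. In BCL6LKOFXRKO livers *Fn1* at 120 ± 34.3 RPKM and *Dcn* at 115 ± 13.0 RPKM (SD, n = 4) overlapped, as did *Efemp1* with *Eln* and *Eln* with *Fbln5*. At the lower end *Fbn1* was at 0.224 ± 0.0884 RPKM in FXRKO and 0.576 ± 0.129 RPKM in BCL6LKOFXRKO livers (SD, n = 4). The ratio of *Fn1* to *Dcn* by RPKM was 4.32, 3.96, 3.41 and 3.65 in FXRKO livers 1 to 4 and 0.939, 1.41, 0.886 and 0.919 in BCL6LKOFXRKO livers 1 to 4. Thus *Dcn* reached or passed *Fn1* per kilobase in 3 BCL6LKOFXRKO livers and in no FXRKO liver.

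The opposite movements changed the make-up of the set more than its total. *Fn1* made up 86.3% to 87.7% of the counts of the 10 genes in FXRKO livers and 59.7% to 71.5% in BCL6LKOFXRKO livers. The other 9 genes summed to 220, 221, 228 and 285 CPM in FXRKO livers and to 497, 527, 501 and 468 CPM in BCL6LKOFXRKO livers 1 to 4. Those sums did not overlap, whereas the sum of all 10 genes, dominated by *Fn1*, did, at 1662 to 2302 CPM in FXRKO and 1160.3 to 1848 CPM in BCL6LKOFXRKO livers.

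**Figure D3:**
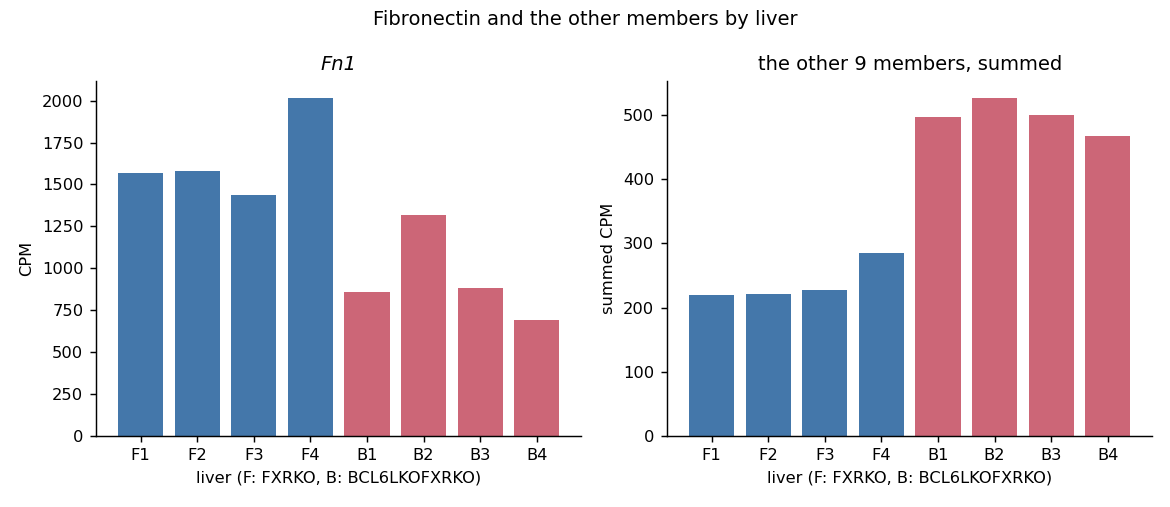
CPM of *Fn1* (left) and summed CPM of the other 9 genes (right) in each liver, on axes that start at 0 and differ in scale, with F1 to F4 for FXRKO and B1 to B4 for BCL6LKOFXRKO livers. *Fn1* is lower in every BCL6LKOFXRKO liver (693 to 1321 CPM against 1435 to 2017), and the sum of the others is higher (468 to 527 CPM against 220 to 285).

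Within a genotype the livers did not keep 1 order across the genes. FXRKO liver 4 was the highest FXRKO liver for 7 of the 10 genes, among them *Dcn*, *Lum* and *Fn1*, and its 8 tested genes other than *Fn1* lay on average 0.28 (log2) above the mean of the FXRKO livers. BCL6LKOFXRKO liver 2 was the highest of its genotype for 5 genes, *Bgn*, *Lum*, *Vcan*, *Fbn1* and *Fn1*, and the lowest for *Efemp1* and *Tgfbi*. The coefficient of variation over BCL6LKOFXRKO livers ran from 10.8% for *Fbln5* and 11.4% for *Dcn* to 42.8% for *Eln*, leaving out *Vcan*. Over FXRKO livers, again without *Vcan*, it ran from 9.32% for *Bgn* to 39.4% for *Fbn1*.

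Markers of stellate cells, the vitamin A-storing pericytes that produce much of the liver's matrix, moved together with these genes. Of 12 markers 11 were tested and 9 were called higher, against 14.1% of all tested genes. Their median log2 fold change was 0.97, and none was at 0 in every liver. Their summed level was 116 to 147 CPM in FXRKO and 243 to 287 CPM in BCL6LKOFXRKO livers. Portal fibroblast markers summed to 31.2 to 33.5 CPM and 36.9 to 67.0 CPM, with 5 of 7 called higher and 1 (*Gas1*) lower. Myofibroblast and smooth muscle markers summed to 29.1 to 46.5 CPM and 47.4 to 88.2 CPM, with 3 of 6 called higher, and *Acta2*, the smooth muscle actin of activated stellate cells, was at 6.78 ± 2.09 and 11.4 ± 4.88 CPM (SD, n = 4) without a call. The part of these cells in the levels of the matrix genes was not tested.

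Divided by the summed CPM of the stellate cell markers in the same liver, a scale chosen after seeing the data and given without a test, most of the matrix genes no longer separated the genotypes. *Dcn* was at 0.677 to 0.898 of that sum in FXRKO and 0.630 to 0.920 in BCL6LKOFXRKO livers. *Bgn*, *Lum*, *Eln*, *Fbn1*, *Fbln5* and *Efemp1* likewise overlapped, and over *Dcn* and these 6 genes the ratio of the genotype means ran from 0.765 for *Efemp1* to 1.33 for *Fbn1*. *Tgfbi* remained higher in all 4 BCL6LKOFXRKO livers, at 0.288 to 0.347 against 0.219 to 0.271. *Fn1* was at 2.42 to 5.43 times that sum in BCL6LKOFXRKO livers and at 10.9 to 13.7 times in FXRKO livers. The stellate cell markers and the 9 tested matrix genes each had a median log2 fold change of 0.97. Division by any sum that rose this much would make most such genes overlap and lower *Fn1* further. The ratio does not bear on the cells involved, whose part was not tested.

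**Figure D4:**
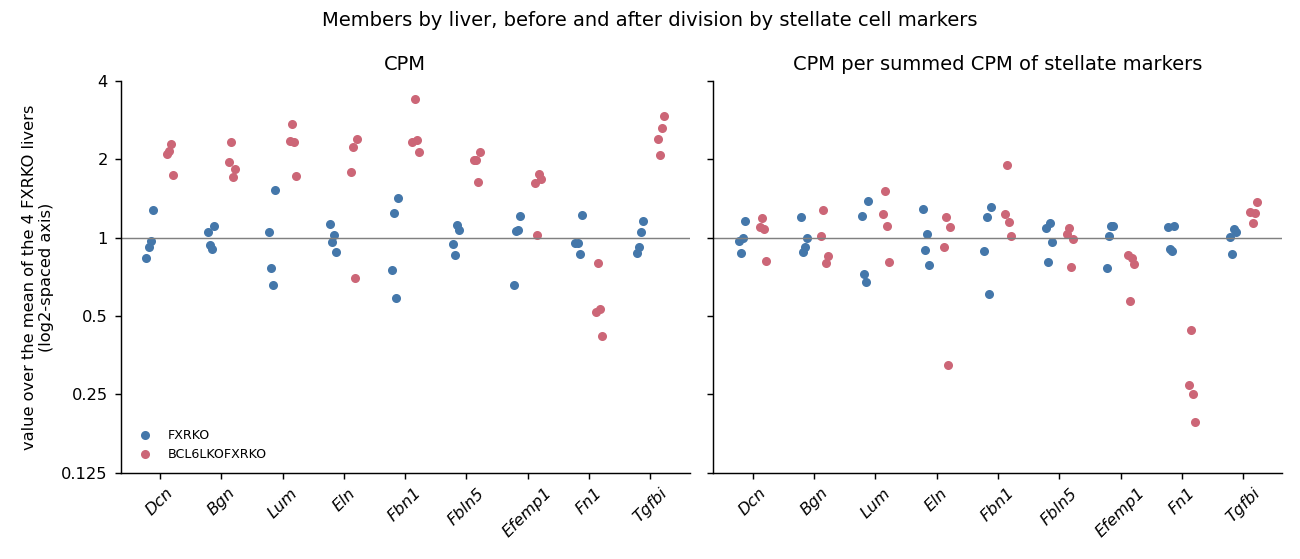
Level of the 9 tested genes in each liver over the mean of the FXRKO livers (log2-spaced axis), as CPM (left) and as CPM per summed CPM of 12 stellate cell markers (right), with FXRKO in blue and BCL6LKOFXRKO in red. On the right the genotypes overlap except for *Tgfbi*, which is higher, and *Fn1*, which is lower in BCL6LKOFXRKO livers. The marker sum itself was higher in BCL6LKOFXRKO livers, which lowers every gene of those livers on the right.

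Other genes of the same matrix pathways were counted from lists written with earlier results of these data known. The counts are to be read beside the 14.1% of all tested genes called higher and the 9.84% called lower. Of 14 further small leucine-rich proteoglycans, 5 were tested, and 2 were called higher and 0 lower (median log2 fold change 0.60). *Prelp*, which anchors basement membranes to collagen, rose from 45.6 ± 5.41 to 80.5 ± 15.6 CPM (SD, n = 4), and *Podn* rose from 6.42 ± 1.47 to 11.3 ± 1.60 CPM (SD, n = 4). *Kera* and *Epyc* had 0 counts in every liver. *Omd*, too low for the filter, went the other way, at 0.977 ± 0.431 and 0.0303 ± 0.0607 CPM (SD, n = 4), with all BCL6LKOFXRKO livers below the FXRKO livers. Among 13 tested other proteoglycans and hyaluronan link proteins, 4 were called higher and 1 lower (median 0.45). The cell-surface proteoglycan syndecan-1 (*Sdc1*) rose by a log2 fold change of 1.41, the link protein *Hapln4* by 2.30 and the basement membrane proteoglycan perlecan (*Hspg2*) by 0.80, while the glypican *Gpc4* fell by 0.82.

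Of 20 tested partners of elastic fibres and microfibrils, 10 were called higher and 0 lower (median 0.69). All 20 log2 fold changes were above 0, against 51.0% of all tested genes with TMM scaling. *Emilin1*, found between elastin and microfibrils, rose by 1.06 on the log2 scale (SE 0.15), *Adamtsl2*, a fibrillin-binding protein, by 1.46 (SE 0.22) and fibulin-4 (*Efemp2*), which recruits the cross-linking enzyme lysyl oxidase, by 2.05 (SE 0.31). The enzyme itself, *Lox*, was not tested, at 0.128 ± 0.197 and 0.246 ± 0.234 CPM (SD, n = 4), and of its tested relatives *Loxl4* was called higher and *Loxl1*, *Loxl2* and *Loxl3* were not. Of 20 tested matricellular and adhesive glycoproteins 11 were called higher and 0 lower (median 0.73). *Mfge8* rose by 0.97, vitronectin (*Vtn*), like plasma fibronectin a hepatocyte product of blood plasma, by 0.88 and *Igfbp7* by 0.77. *Vtn* went from 2652 ± 420.0 to 4884 ± 656 CPM (SD, n = 4), the direction opposite to *Fn1*.

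Of 9 tested integrin subunits that bind fibronectin or fibulins, 4 were called higher and 0 lower (median 0.35). *Itgb5*, *Itga9* and *Itga8* rose by 0.88, 0.86 and 0.73 on the log2 scale. The subunits of the classical fibronectin receptor differed from these: *Itga5* stood at a log2 fold change of 0.22 (adjusted p = 0.376, edgeR) and *Itgb1* one of -0.37 (adjusted p = 0.0225, edgeR), which did not reach the fold threshold with TMM and passed it with scaling by total counts alone. Of 11 tested proteases that cut proteoglycans, elastin or fibronectin, 8 were called higher and 0 lower (median 1.05). The membrane-bound collagenase *Mmp14* rose by 1.13, the gelatinase *Mmp2* by 1.23 and cathepsin S (*Ctss*) by 0.72.

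Enzymes that build glycosaminoglycan chains were mostly not called. Of 25 tested, 5 were called higher and 0 lower (20% higher, against 14.1% of all tested genes), and the median was 0.11 on the log2 scale. *Chst15*, *Chpf2* and *Extl1* rose by 0.78, 0.62 and 1.28 on the log2 scale. In the hyaluronan list, 3 of 13 tested genes were called higher and 1 lower (median 0.35). These shares, 23.1% and 7.69%, were near the 14.1% and 9.84% of all tested genes. The inter-alpha-trypsin inhibitor chains *Itih4* and *Itih2*, hepatocyte proteins whose family attaches to hyaluronan, rose by 1.55 and 0.85, the hyaluronan clearance receptor *Stab2* rose by 0.63, and the hyaluronidase *Hyal1* fell by 0.95. The synthases *Has1*, *Has2* and *Has3* were not tested, and the mean of each was under 0.160 CPM in both genotypes. Of 15 tested TGF-beta ligands, receptors and response genes, 6 were called higher and 0 lower (median 0.49). The latent complex proteins *Ltbp3* and *Ltbp1* had log2 fold changes of 1.12 and 0.92, and those of the ligands *Tgfb3* and *Tgfb1* were 0.96 and 0.62. *Ltbp1* and *Ltbp3* are also on the list of elastic fibre and microfibril partners, so both counts of genes called higher include them. Likewise *Stab2* and *Lyve1* are on the endothelial, *Spp1* on the cholangiocyte and *Dpt* on the portal fibroblast marker list as well. *Ctgf* is on both the matricellular and the TGF-beta list. *Des* is on both the stellate cell and the myofibroblast marker list, so both sums include it. The TGF-beta count fell to 2 with scaling by total counts alone and without FXRKO liver 2, and to 3 without FXRKO liver 4 or without BCL6LKOFXRKO liver 2, and the protease count fell to 5 without FXRKO liver 2 or BCL6LKOFXRKO liver 4.

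**Figure D5:**
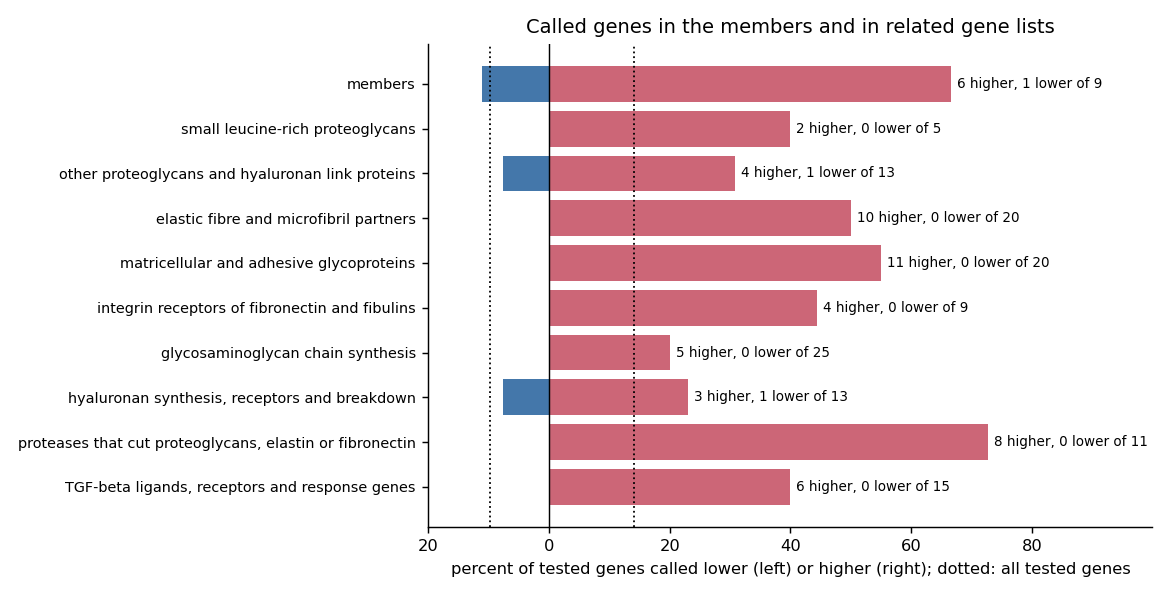
Percent of tested genes called higher (red, to the right) or lower (blue, to the left) in BCL6LKOFXRKO livers, for the 10 genes described here ("members") and for 9 lists of related genes, with counts beside the bars and dotted lines at the shares of all tested genes (14.1% and 9.84%). The share called higher runs from 20% of the chain-building enzymes to 72.7% of the proteases.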

How the data were processed

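Polyadenylated RNA from 8 mouse livers was sequenced with single-end reads after preparation with a stranded kit. Per the submitters' processing notes and the methods of the study, reads were aligned to mm10 with STAR 2.5.2, keeping those with 1 location. The authors deposited raw counts per gene, made with HOMER 4.10 from reads on exons with 1 transcript kept per gene and no adjustment, and no strand option is named in the header of the table. Library totals and their range are given above.

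The counts were tested in R 4.3.3 with edgeR 4.0.16 (filterByExpr, TMM, robust quasi-likelihood test, genotype as the sole term) over the 12340 genes that passed the filter, with Benjamini-Hochberg adjustment. The threshold for a call was 0.05 on the adjusted p and 0.5 on the size of the log2 fold change. The standard error is the fold change over the square root of F. The genes, lists and tests were chosen with earlier results of these data known. Genes named were the 10 described, and from each list, in each direction, the 3 called genes of smallest adjusted p. Other genes named (*Kera*, *Epyc*, *Omd*, *Lox* and its relatives, *Itga5*, *Itgb1*, *Tgfb3*, *Acta2*, *Has1* to *Has3*, *Alb*, *Apoc3*, *Ttr*, *Gas1*, *Vwf*, *Krt14*, *Wt1*) were chosen after their values were seen. In the closing section, for each tested gene, the 2 nearest profiles by root mean square difference of mean-centred log2 CPM (0.1 CPM added) are named, leaving out predicted genes.

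The alternatives were DESeq2 1.42.0, limma 3.58.1 (voom with quality weights), scaling by total counts or by RLE size factors, TMM without the 50 most counted genes, omission of the filter or a filter of at least 10 counts per liver, omission of each liver, and no fold threshold or a threshold of 1. Promoters were those of RefSeq, GRCm38.p6. A planned comparison of protein sequences was not run. No pair of livers of a genotype agreed within sampling noise (chi-square per degree of freedom 10.0 to 45.8).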

Additional observations from a re-analysis of the deposited data

Results flagged for a closer look

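The summed level of 16 Kupffer cell and macrophage markers stood apart in BCL6LKOFXRKO liver 4. It was 982 CPM there and 636 to 668 CPM in the other BCL6LKOFXRKO livers, so that the gap to the nearest liver was 0.908 of the range of the group, above the 95% critical value of Dixon's test for 4 livers. In that liver *Tgfbi*, *Eln* and *Fbln5* were at their highest among BCL6LKOFXRKO livers, and *Dcn*, *Lum*, *Fbn1* and *Fn1* at their lowest. Without that liver the calls of the 10 matrix genes were as with it. It was the 1 case among 40 groups tested, where chance alone gives about 2 (1 in 20). None of the 10 genes stood apart by this rule in either genotype.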

How the results depend on the processing

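Each result was recomputed under 17 alternatives. None of the 9 tested genes changed direction in any of them, and *Dcn*, *Lum*, *Fbn1* and *Tgfbi* kept their calls in all 17. The alternatives with no fold threshold and with a threshold of 1 use the main fit, so no direction can change in them. With no fold threshold no call can be lost either. Between 4 and 7 genes were called higher, and 1 was called lower except at a log2 fold change above 1, where the number was 0 because *Fn1* lies at -0.82. *Bgn* and *Fbln5* lost their calls at that threshold alone. *Eln* gained a call with DESeq2 and, in edgeR, without BCL6LKOFXRKO liver 3, and *Efemp1* without BCL6LKOFXRKO liver 2. Over the alternatives the adjusted p of *Fn1* ran from 0.000279 to 0.0208, and its log2 fold change from -1.04 to -0.70. Counts of genes limit *Vcan*, *Fbn1*, *Eln*, *Lum*, *Fbln5* and *Efemp1*, which had at most 145 counts in any liver. For the related lists, at a log2 fold change above 1 the number called higher was 4 for matricellular glycoproteins, 2 for chain-building enzymes, 5 for proteases, 1 for the hyaluronan list, 1 for the TGF-beta list and 0 for integrins and small leucine-rich proteoglycans. Without the filter *Omd* was called lower. Other proteoglycans had 2 genes called lower with total counts alone, with no fold threshold, and without BCL6LKOFXRKO liver 1 or 2. In the lists with 0 genes called lower by edgeR, DESeq2 and limma voom also called 0, and at an unadjusted p under 0.05 the number was 1, *Itgb1*. No paired analysis was run, because the labels give no replicate numbers shared between the genotypes. Each title carries a number of its own. Some of these numbers follow each other across the genotypes, and that of BCL6LKOFXRKO liver 1 lies far from the rest. What the numbers stand for is not stated, so a litter, day or batch shared by livers of both genotypes was not tested.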

Other observations

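The profile of each tested gene over the 8 livers was compared with those of all other tested genes, as the root mean square difference of mean-centred log2 CPM. The measure is a description, and livers of a genotype share most of the difference. Nearest to *Dcn* were *Trim24* (0.11) and *Scara3* (0.11), nearest to *Bgn* were *Cfi* and *App* (0.11 each), and nearest to *Lum* were *Naip2* (0.15) and *Fam49a* (0.16). For *Fbn1* they were *Mbp* (0.21) and *Pla2g7* (0.22), for *Fbln5* *Fads1* and *Mov10* (0.09 each), for *Tgfbi* *Bbs7* and *Angptl2* (0.12 each), and for *Efemp1* *Adamts1* (0.10) and *Vipr1* (0.14). *Eln* had the least close neighbours, *Nusap1* (0.22) and *Paqr4* (0.27). Nearest to *Fn1* were *Kansl1l* (0.10) and *Fam13b* (0.13), which had log2 fold changes of -0.92 and -0.74 (adjusted p = 0.00451 and 0.0224, edgeR). Among the 9 tested matrix genes the closest pair was *Bgn* and *Fbln5*, at 0.17, and *Vcan*, which did not pass the filter, was not compared.

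The remaining marker lists are given as values, to be read beside the 14.1% of all tested genes called higher. The share of endothelial markers called higher, 18.2%, was near it. Of 11 tested endothelial markers 2 were called higher (*Vwf* and *Stab2*), with sums of 192 to 271 CPM in FXRKO and 268 to 334 CPM in BCL6LKOFXRKO livers. Of 15 tested macrophage markers 6 were called higher, with sums of 419 to 592 CPM and 636 to 982 CPM. Cholangiocyte markers summed to 60.3 to 87.9 CPM and 95.3 to 160.3 CPM, with 3 of 7 called higher, and lymphocyte and neutrophil markers to 6.02 to 9.78 CPM and 12.1 to 19.7 CPM, with 1 of 2 called higher. Mesothelial markers were near the floor, at 1.25 to 5.70 CPM and 2.18 to 4.81 CPM, with *Krt14* at 0 in every liver and *Wt1* the only one tested. Their part in the levels of the matrix genes was not tested.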
